A study of Drosophila melanogaster with 6 samples.

Results

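Nazo (CG11671) and Sting (CG1667), 2 genes of the antiviral STING pathway, were followed in Drosophila S2 cells depleted of spotted-dick. All probe sets that the array annotation pairs with either gene were taken, which gave 1 probe set for Nazo and 1 for Sting out of 18769 that are not controls. They are 2 of 11983 genes with a probe set of their own. The samples were 3 of S2 cells treated with double-stranded RNA (dsRNA) against spotted-dick and 3 treated with dsRNA against GFP, all harvested 5 days after treatment. Spotted-dick is the gene now named pita, coding for a zinc-finger protein that binds DNA, and GFP is a jellyfish protein with no fly counterpart. S2 cells are a hemocyte-like embryonic line that takes up dsRNA from the medium and then degrades the matching mRNA. Both groups were thus exposed to dsRNA, and the labels give neither untreated cells nor another dsRNA against spotted-dick. Effects of losing spotted-dick and other effects of that dsRNA cannot be told apart. Nazo and Sting were chosen on their signals in this same comparison of spotted-dick with GFP arrays, so their own changes are given as a description, with no test.

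In animals, cyclic GMP-AMP synthase-like enzymes make cyclic dinucleotides on sensing nucleic acids, and these bind STING, an adaptor in the endoplasmic reticulum membrane. In flies STING acts through the kinase IKKbeta and the NF-kB factor Relish, and Nazo is among the genes this route induces after infection with picorna-like viruses. Nazo restricts such viruses in fly cells and is a homologue of human C19orf12, a gene mutated in a neurodegeneration with brain iron accumulation. Fly Nazo has also been linked to triglyceride storage, and fly STING to enzymes of fatty acid synthesis.

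Values are array signals, a linear intensity per probe set. The trimmed mean signal was 125.4 to 138.8 in the spotted-dick arrays and 125.8 to 189.6 in the GFP arrays, so signals were quantile-normalized before any test. Changes are differences of mean log2(normalized signal + 16), spotted-dick minus GFP, which understate the change of dim transcripts. The number of arrays limits the precision. No label states whether the replicates were independent cultures, so p-values measure the spread between these samples, which may be technical. The target was depleted: pita signals were 25.9, 46.6 and 28.7 in the spotted-dick arrays and 335.9, 333.2 and 269.7 in the GFP arrays, a log2 change of -2.55 ± 0.16 (SE, n = 3 each). Of 12 hemocyte markers 11 were tested, and their summed normalized signal was 13260 to 13900 in the spotted-dick arrays and 13520 to 14190 in the GFP arrays. Most of that sum came from vkg (mean 5271 in the spotted-dick and 5470 in the GFP arrays) and Col4a1 (4466 and 4450). It thus says little of the dimmer markers. Transcripts of srp, ush, Hml, Col4a1 and vkg were well above background, NimC1 stayed under a background level of 17.4 (the 95th percentile of control probe sets for foreign sequences) on all arrays and Sr-CI was too dim to test. In that list Pxn, an extracellular matrix peroxidase, rose (1.40 ± 0.18, SE, limma adjusted p = 3.96e-04) and the other 10 markers did not pass, against 2.45% called over all tested genes. Pxn was above 17.4 on 1 of the 3 GFP arrays (30.2, 11.5 and 16.8). The size of its change thus depends on signals at background and on the added 16. Pxn had 2 probe sets, and the value is that of the brighter, so it does not speak for the other. At an unadjusted p under 0.05 there were 3 hemocyte markers, Pxn, crq (-0.31, limma adjusted p = 0.0553) and Ppn (0.20), and over all tested genes 13.4%. None of 7 tested neuron or glia, fat body and germline or ovarian markers passed in limma, with 1 at an unadjusted p under 0.05. Of these, elav (deposited signal 60.1 to 112.1), brp (48.4 to 77.5) and aub (36.5 to 73.0) were above 17.4 on all arrays. Their signals were like those of the hemocyte markers eater (43.3 to 83.4) and He (23.2 to 45.3). Markers repo, bam and Lsp2 were above it on some arrays and tj on none. No muscle marker was bright enough to test. The part of these marker levels in the results below was not tested.

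Nazo transcripts were far lower in the spotted-dick arrays than in the GFP arrays. The deposited Nazo signal was 32.3, 37.5 and 27.0 in the spotted-dick arrays and 1133.6, 918.4 and 694.1 in the GFP arrays. The 2 groups were far apart, with the dimmest GFP array 18.5 times brighter than the brightest spotted-dick array. After normalization Nazo averaged 35.8 ± 5.9 in the spotted-dick arrays and 830.7 ± 33.1 in the GFP arrays (SD, n = 3 each), a signal 23.2 times higher in the GFP arrays. On the log2(normalized signal + 16) scale the change was -4.04 ± 0.10 (SE). Because the signals are from a bulk culture, fewer cells that express Nazo and less Nazo RNA per cell cannot be told apart.

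The spread of Nazo among replicates was small beside that gap. The GFP arrays differed among themselves by up to 1.63 times as deposited, in the order of the arrays' overall brightness, and by up to 1.08 times after normalization. Their coefficient of variation fell to 3.99% with normalization, against 24.0% as deposited. In the spotted-dick arrays it was 16.4% after normalization and 16.3% as deposited, at a far lower signal. Each of the 9 pairs of a GFP with a spotted-dick array gave a normalized ratio of 19.0 to 28.2. The arrays were washed on 2 fluidics stations that each held both groups. Station 1 held spotted-dick replicate 1 with GFP replicates 1 and 2, and station 2 held spotted-dick replicates 2 and 3 with GFP replicate 3. The change was -4.10 within station 1, with a lone spotted-dick array, and -3.97 within station 2, with a lone GFP array.

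Some Nazo signal remained above background after spotted-dick RNAi. The 100 control probe sets for foreign sequences had a 95th percentile of 17.4, below Nazo on every array. In spotted-dick replicates 1 to 3, 2, 1 and 1 of the 100 controls read as bright as Nazo or brighter, and in each GFP array 1 did. Nazo was brighter than 62.3%, 63.7% and 61.5% of fly probe sets in the spotted-dick arrays, and brighter than 94.1%, 93.8% and 93.6% in the GFP arrays. In every replicate it thus sat in the middle range of the array after spotted-dick RNAi and near the top after GFP RNAi.

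Sting transcripts, by contrast with those of Nazo, lay at similar levels in both groups. The deposited Sting signal was 378.8, 487.1 and 417.5 in the spotted-dick arrays and 690.1, 560.0 and 412.7 in the GFP arrays. The groups overlapped, since GFP replicate 3 was dimmer than spotted-dick replicates 2 and 3, and the bright values were those of the bright arrays. After normalization Sting averaged 472.6 ± 30.7 in the spotted-dick arrays and 499.7 ± 21.3 in the GFP arrays (SD, n = 3 each). The groups still overlapped, and the log2 change was -0.08 ± 0.08 (SE). Without normalization it was -0.34, where the median of all tested probe sets was itself -0.20. Within station 1, with a lone spotted-dick array, the change was -0.21, and within station 2, with a lone GFP array, it was 0.03. Sting was brighter than 88.5%, 89.8% and 89.3% of fly probe sets in the spotted-dick arrays and than 90.2%, 89.9% and 89.3% in the GFP arrays.

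**Figure D1:**
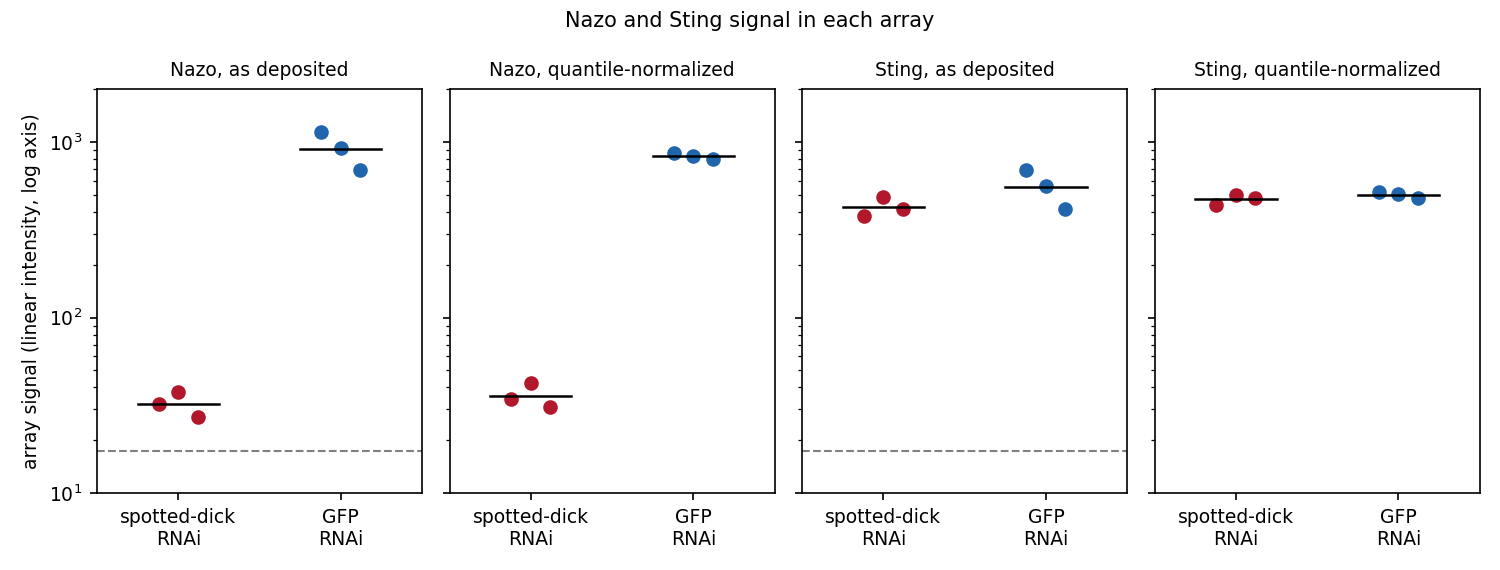
Array signal of Nazo and Sting (vertical log axis, linear intensity units) in the 3 spotted-dick RNAi and 3 GFP RNAi arrays, as deposited and after quantile normalization; points are arrays, bars are group means, and the dashed line in the panels of deposited values is 17.4, the 95th percentile of foreign-sequence controls. Normalized Nazo averages 35.8 in the spotted-dick arrays and 830.7 in the GFP arrays, while the Sting groups overlap.

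Against all genes, Nazo stood at the extreme of the response and Sting in its middle. Of 8272 tested genes, each taken by its brightest probe set, 203 were called at a limma adjusted p under 0.05, or 2.45%, with 140 lower (1.69%) and 63 higher (0.762%) in the spotted-dick arrays. Over probe sets the share called was 2.03%, and over genes with values as deposited 1.43%. The groups did not overlap for 18.9% of tested genes, and were apart with the spotted-dick arrays lower for 8.64%, Nazo among them. There were 4 genes with a log2 change below -3 (0.0484%), and Nazo had the second lowest value after CG15715 (-5.39). Both the rank and the count depend on the added 16: with 1 added instead, Nazo was at -4.51 and ranked after CG15715 and Atox1 (-4.57), and 10 genes were below -3. With 64 added Nazo was at -3.17 and again second, and 2 genes were below -3. Changes between -0.2 and 0.2 were measured for 73.4% of tested genes, and Sting was among these. Both genes were chosen with this contrast in view, so these positions describe them and support nothing.

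**Figure D2:**
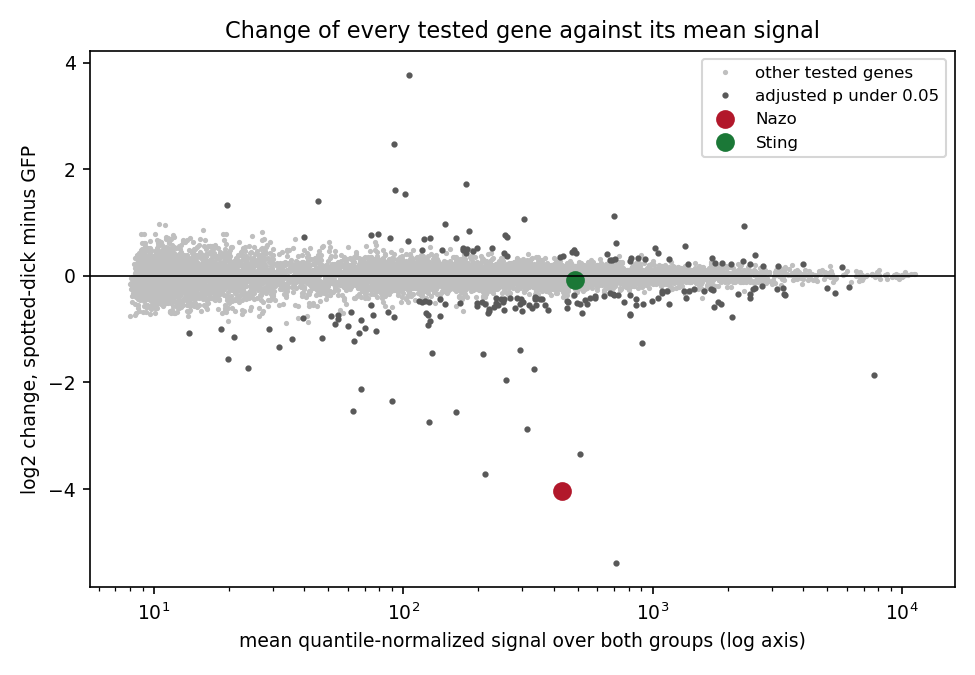
Log2 change of each of 8272 tested genes (spotted-dick minus GFP, vertical axis) against its mean quantile-normalized signal over both groups (horizontal log axis); dark points passed at an adjusted p under 0.05. Nazo lies at -4.04, below every gene but CG15715 (with 1 in place of 16 added before the log, below every gene but CG15715 and Atox1), and Sting lies at -0.08 among genes of like brightness.

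The other tested genes listed with the STING route showed no change of the size seen for Nazo. They run from sensors to outputs and include CG3740, a Nazo paralogue. With 16 added before the log, only Rel and key (normalized GFP means 1017 and 767.3) were bright enough to fall as far as Nazo. IKKbeta (198.7), cGlr2 (65.0), CG3740 (48.4), IKKepsilon (33.0) and Srg1 (7.0) were too dim for such a fall. For these dimmer genes the contrast with Nazo shows nothing, and their intervals speak of smaller falls only. Of the 10 other genes listed for this route, 7 were tested and none passed in limma, none of them at an unadjusted p under 0.05, against 2.45% called over all genes. Their median log2 change was -0.05, beside 0.01 over all tested genes, and the groups did not overlap for 1 of the 7, Rel, against 18.9% of all tested genes. Among the sensors, cGlr2, a cyclic GMP-AMP synthase-like enzyme, had a normalized signal of 59.9 ± 5.7 in the spotted-dick arrays and 65.0 ± 4.3 in the GFP arrays (SD, n = 3 each; log2 change -0.10, 95% interval -0.38 to 0.19). Its relative cGlr1 was too dim to test.

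Among the transducers, IKKbeta, the kinase that acts between STING and Relish, had signals of 190.5 ± 17.3 in the spotted-dick arrays and 198.7 ± 15.4 in the GFP arrays. Its log2 change was -0.06 (95% interval -0.27 to 0.16, limma adjusted p = 0.875). The regulatory subunit key, also called IKKgamma, had a change of -0.02 (-0.16 to 0.13, limma adjusted p = 0.954). IKKepsilon, the fly relative of the mammalian STING kinase TBK1, had a change of 0.14 (-0.21 to 0.48, adjusted p = 0.796). None of these 3 intervals reached below -0.27.

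Rel encodes Relish, the NF-kB factor of this route and of the Imd pathway. Its deposited signal was 852.7, 969.0 and 833.5 in the spotted-dick arrays and 1335.2, 1134.5 and 876.6 in the GFP arrays. After normalization it averaged 979.0 ± 26.6 in the spotted-dick arrays and 1017 ± 8.4 in the GFP arrays (SD, n = 3 each). The log2 change was -0.05 (95% interval -0.18 to 0.07, limma adjusted p = 0.767), so a difference was not detectable although the groups did not overlap.

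Of the output genes besides Nazo, those with a probe set of their own, Srg1 and Srg2, were dim. Srg1, a STING-regulated gene, had signals of 3.2, 19.1 and 10.7 in the spotted-dick arrays and 7.8, 8.3 and 5.9 in the GFP arrays, at or near the background level of 17.4. Its change was 0.23 with a wide interval of -0.37 to 0.83 (limma adjusted p = 0.802). Srg2 was too dim to test and Srg3 had no probe set of its own. CG3740, the other fly homologue of C19orf12, had signals of 57.7, 10.8 and 43.5 in the spotted-dick arrays and 79.2, 47.9 and 38.6 in the GFP arrays. Spotted-dick replicate 2 was low, the groups overlapped, and the change was -0.26 (95% interval -0.88 to 0.36, limma adjusted p = 0.781).

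**Figure D3:**
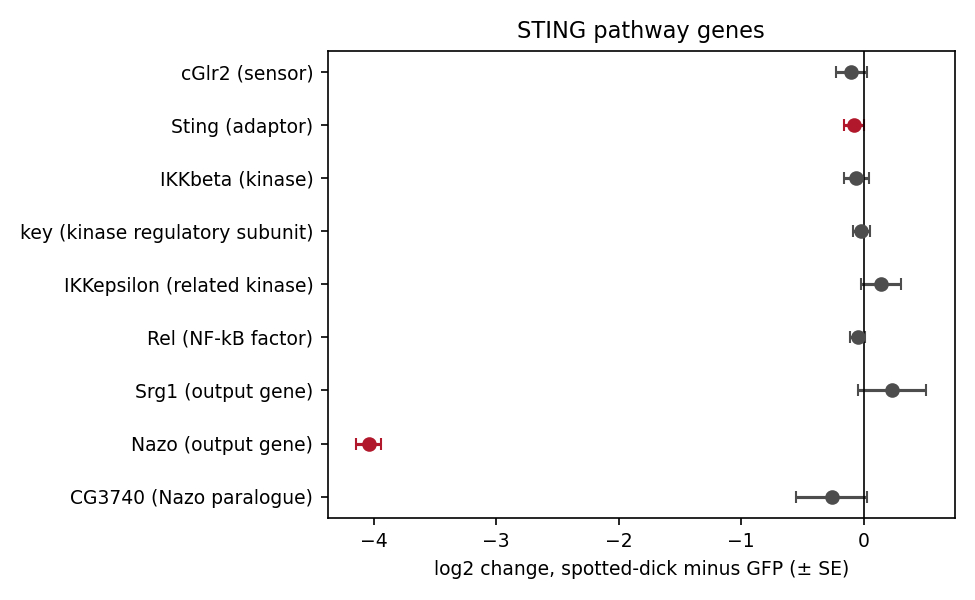
Log2 change (spotted-dick minus GFP, horizontal axis) of 9 genes, from sensor to output of the STING route and including CG3740, the Nazo paralogue; points are fitted changes and bars are standard errors over 3 arrays per group. Nazo is at -4.04 and the other 8 lie between -0.26 and 0.23. With 16 added before the log, only Sting, Rel and key among these 8 were bright enough in the GFP arrays to fall as far.

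Relish also serves the Imd pathway, which responds to bacterial peptidoglycan. None of its 17 tested signalling genes passed in limma, against 2.45% called over all tested genes, with a median log2 change of -0.03. At an unadjusted p under 0.05 there were 2, a share near the 13.4% over all tested genes. The smallest p-values belonged to PGRP-LA, a peptidoglycan recognition protein (-0.23 ± 0.09, SE, limma adjusted p = 0.281), and ben, a ubiquitin-conjugating enzyme (-0.19 ± 0.08, adjusted p = 0.309). POSH, a ubiquitin ligase, followed at 0.20, and pirk, an inhibitor of Imd receptors, at -0.13. Without spotted-dick replicate 1, ben passed as lower (-0.29, adjusted p = 0.0404).

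Of 14 listed antimicrobial peptide genes, which are targets of NF-kB factors, 6 were tested. DptA, AttA, AttB, AttC, CecA1, CecA2, CecC and Dro had no probe set of their own. Of the 6 tested, 2 fell and none rose, against 1.69% lower and 0.762% higher over all tested genes. Their median log2 change was -0.14. DptB had a normalized signal of 614.6 ± 194.5 in the spotted-dick arrays and 1011 ± 103 in the GFP arrays (SD, n = 3 each; log2 change -0.74 ± 0.15, SE, limma adjusted p = 0.0122). AttD had 63.9 ± 15.7 in the spotted-dick arrays and 110.2 ± 8.3 in the GFP arrays (log2 change -0.68 ± 0.15, SE, limma adjusted p = 0.0261). CecB had a change of 0.11 and Def one of -0.27, and neither passed. Both calls rested on few arrays. The call for DptB ended without spotted-dick replicate 1 (limma adjusted p = 0.0716) or 3 (0.0942) and without GFP replicate 1 (0.0699) or 2 (0.0601). That for AttD ended without spotted-dick replicate 1 (0.0751) and without GFP replicate 1 (0.122), 2 (0.13) or 3 (0.0711), and with the replicate number as a block (0.0548). Without limma's intensity trend the adjusted p was 0.301 for DptB and 0.22 for AttD, without the filter on dim probe sets it was 0.129 and 0.158 for these genes, and with robust estimation that of DptB was 0.276.

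Among 8 tested genes of the JAK/STAT pathway and its virus-induced targets, vir-1 fell and none rose, against 1.69% lower over all tested genes, and the median log2 change was 0.03. The list held 16 genes. Of these, upd3, hop, Socs36E, TotM and TotA had no probe set of their own, and upd1, upd2 and Vago were too dim to test. The gene vir-1 is a marker of the response to Drosophila C virus. Its deposited signal was 2627.4, 3106.0 and 2466.3 in the spotted-dick arrays and 4711.7, 4258.2 and 3316.9 in the GFP arrays, with no overlap. The log2 change was -0.33 ± 0.05 (SE, limma adjusted p = 0.00215), a much smaller drop than that of Nazo, and it kept its call without any single array. It missed the threshold with values as deposited (-0.57, limma adjusted p = 0.0518) and without limma's intensity trend (adjusted p = 0.245). The JAK/STAT receptor gene dome (0.09), the repressor ken (-0.10) and the phosphatase Ptp61F (0.10) did not pass, and another probe set of Ptp61F had a change of -0.10.

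None of 10 tested genes of antiviral RNA interference and virus restriction passed in limma, against 2.45% called over all tested genes. At an unadjusted p under 0.05 there were 2 (13.4% over all tested genes), and the median log2 change was -0.04. The nearest were pst, a resistance gene for Drosophila C virus (-0.24 ± 0.07, SE, limma adjusted p = 0.0878), and Hen1, which methylates small RNAs (0.47 ± 0.13, SE, adjusted p = 0.0890). Without spotted-dick replicate 2, pst passed as lower (-0.31, adjusted p = 0.00851). Dcr-2, the nuclease that cuts viral dsRNA, had a change of -0.17, and CHKov1, a sigma virus resistance gene, one of -0.12.

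STING has been tied to autophagy and, in flies, to fatty acid synthesis. None of 23 tested autophagy genes passed in limma, against 2.45% called over all tested genes, with a median log2 change of -0.03. At an unadjusted p under 0.05 there were 3, a share near the 13.4% over all tested genes. The smallest p-values were those of Atg5 (-0.31), Atg8a (-0.12), the lipid kinase subunit Vps15 (0.27) and Atg18b (-0.36), with adjusted p from 0.311 to 0.405. Of 19 tested genes of fatty acid and triglyceride synthesis and storage Jabba fell and none rose, against 1.69% lower over all tested genes, with a median log2 change of 0.00. Jabba, which anchors histones to lipid droplets, had signals of 39.9, 28.2 and 44.3 in the spotted-dick arrays and 121.2, 108.6 and 91.7 in the GFP arrays (log2 change -0.97 ± 0.15, SE, limma adjusted p = 0.00168). A second, dimmer Jabba probe set did not pass (-0.32, adjusted p = 0.736), and the call ended when both were averaged (-0.65, adjusted p = 0.152) and without limma's intensity trend (adjusted p = 0.0651). Dgat2 (0.61, near background), Desat1 (-0.10) and Agpat1 (-0.31), an acyltransferase, did not pass.

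The nearest genes on the chromosome were examined beside each member. Nazo lies on chromosome arm 3R and Sting on 2R. Of the 3 nearest protein-coding genes on each side of either member, 9 of 12 could be tested. None passed in limma, against 2.45% called over all tested genes, with 1 at an unadjusted p under 0.05 (13.4% over all tested genes). Beside Nazo the changes were 0.16 ± 0.07 (SE) for the replicative helicase gene Mcm2, 0.08 for CG9630, -0.16 for ato, a proneural transcription factor, and -0.35 for CG31463. CG11672 and CG31464 were too dim to test. Beside Sting the changes were -0.02 for the SNARE gene Vamp7, -0.03 for Marc, -0.27 for Lsm11, 0.06 for the proteasome subunit Prosalpha7 and 0.17 for CG1671. Lsm11 was dim as well (deposited GFP mean 31.7), and Orc6 had no probe set of its own.

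A wider window of 10 protein-coding genes on each side was chosen after the data were seen. Around Sting none of 17 tested genes passed in limma, with 1 at an unadjusted p under 0.05. Around Nazo 2 of 16 tested genes had an unadjusted p under 0.05, and over all tested genes 13.4% did. In limma 1 of these 16 passed, against 2.45% over all tested genes. This was mRpL1, which encodes a mitochondrial ribosomal protein and lies 5 protein-coding genes from Nazo. Its deposited signal was 88.9, 78.2 and 87.8 in the spotted-dick arrays and 559.8, 461.9 and 359.1 in the GFP arrays, with no overlap. The log2 change was -1.96 ± 0.10 (SE, limma adjusted p = 4.63e-09, from 2.6e-20 to 5.95e-04 over the alternatives run). The tested genes between it and Nazo, CG31463 (-0.35) and CG9626 (0.26), did not pass, nor did nac on its far side (-0.04). CG31463 was above 17.4 on 0 of 3 spotted-dick and 1 of 3 GFP arrays, and CG11672 and CG31464, which also lie between, were too dim to test. Of the genes between, only CG9626 was thus above background on all arrays.

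**Figure D4:**
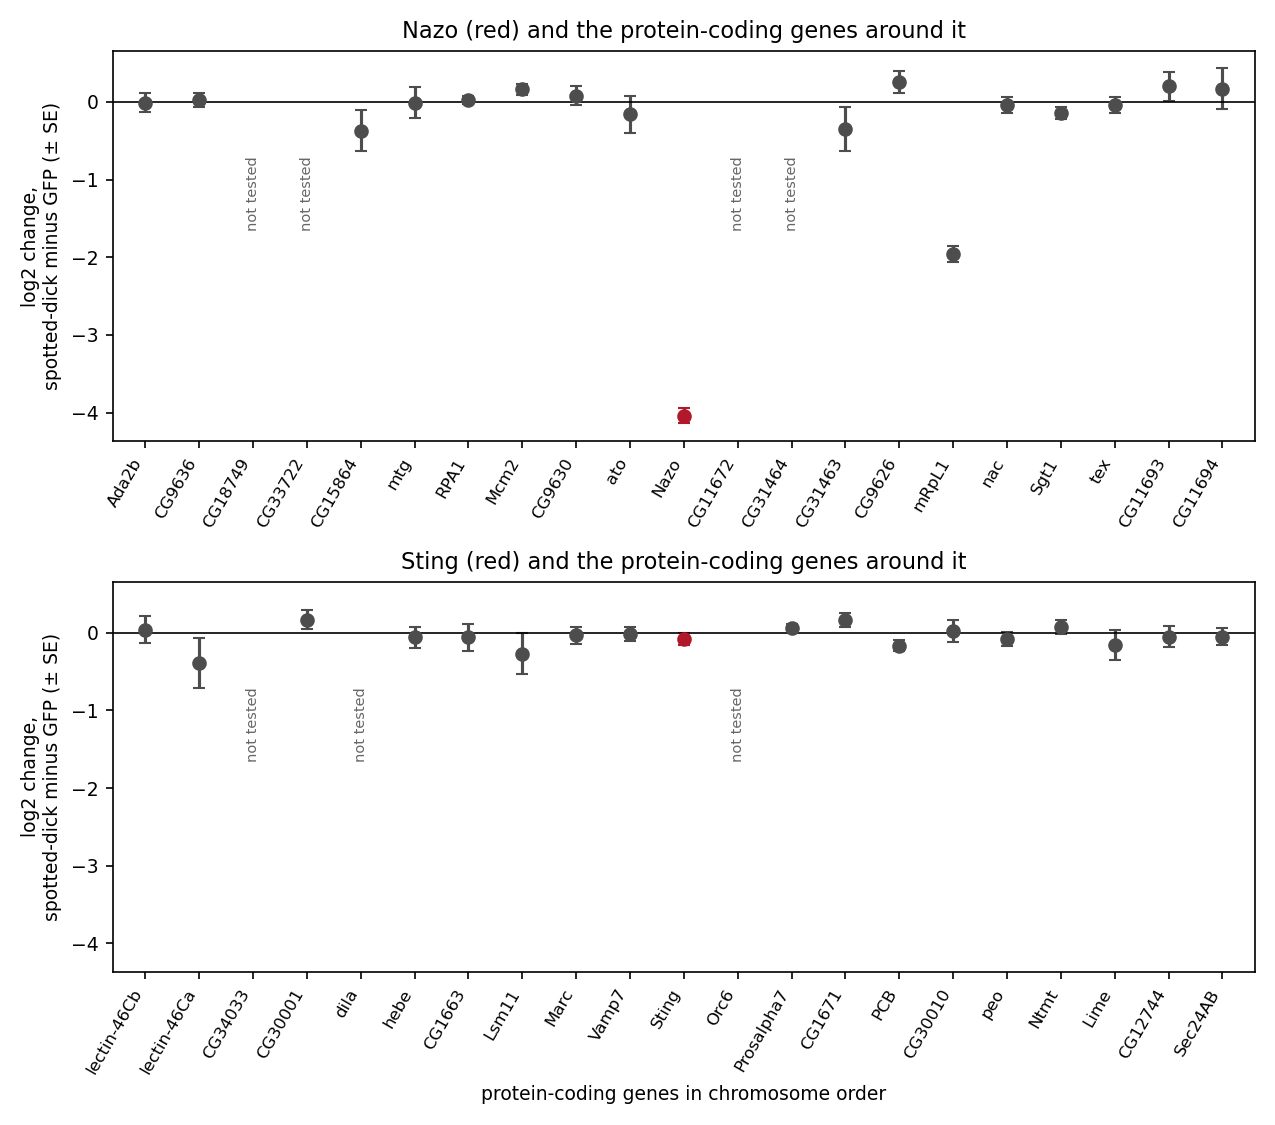
Log2 change (spotted-dick minus GFP, vertical axis) of Nazo and Sting (red) and of the 10 protein-coding genes on each side (grey) in chromosome order, not to distance; bars are standard errors over 3 arrays per group. Beside Nazo at -4.04 the one other low point is mRpL1 at -1.96, and Sting and its neighbours lie near 0.

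The genes with the profile most like that of Nazo were sought by the Euclidean distance over the 6 arrays between log2(normalized signal + 16) values, each gene centred on its own mean. Over 8271 other genes the median distance to Nazo was 4.98, and 1 gene lay within 0.5. This was Atox1, a copper chaperone, at a distance of 0.43. Its deposited signal averaged 15.4 in the spotted-dick arrays and was 558.6, 464.4 and 335.7 in the 3 GFP arrays, and its log2 change was -3.72. Atox1 was under the background level of 17.4 on all 3 spotted-dick arrays, so the size of its change and its distance depend on signals at background and on the added 16. CG33462 followed at 0.91, with a change of -3.35, and TfIIEalpha, part of the general transcription machinery, at 1.43, with a change of -2.88.

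Then came CG18528 (distance 1.60), CG15715 (1.67), pita itself (1.88), the origin recognition gene Orc4 (1.89) and CG7824 (2.13). The same limit holds for Orc4, which was above 17.4 on 0 of the 3 spotted-dick arrays, and in part for CG7824 (1 of 3), CG18528 and CG15715 (2 of 3 each). Pita was thus the sixth most similar profile to Nazo, with a smaller log2 change than Nazo (-2.55). All 8 lay low in the 3 spotted-dick arrays, so the distance mainly reflects the size of the drop. On chromosome arm 3R with Nazo were CG18528 and CG7824, which lie 2002 and 2659 protein-coding genes away from it.

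No gene stood out as like Sting. Over the same 8271 genes the median distance was 0.40, and 791 genes lay within 0.2. The 8 closest, at 0.04 to 0.07, were eIF4B, a translation initiation factor, CG5934, CG13364, the copper chaperone of cytochrome oxidase Cox17, CG5515, CG2931, Bdbt and CG1647. Their log2 changes ran from -0.10 to -0.03. Such small distances are within the spread of replicates for a gene with no clear group difference.

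**Figure D5:**
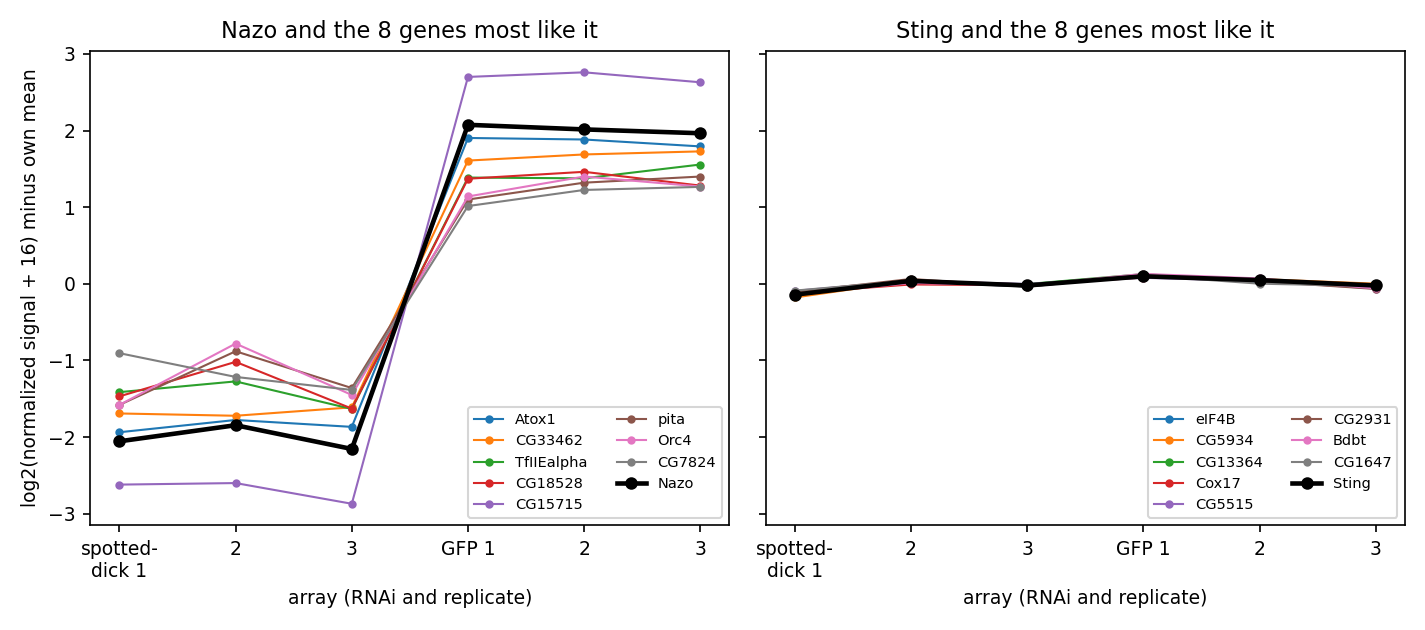
Log2(normalized signal + 16) minus each gene's own mean (vertical axis) over the 3 spotted-dick and 3 GFP arrays (horizontal axis) for Nazo and Sting (thick black) and the 8 genes closest to each; lines join the arrays of a gene and imply no order. The genes like Nazo are all low in the spotted-dick arrays, with Atox1 nearest at a distance of 0.43, and those like Sting are flat.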

How the data were processed

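The deposited values were 1 linear intensity per probe set and array (Affymetrix Drosophila_2, per the file headers). For the probe-combining software and any scaling, nothing is stated in the labels or headers. Present or absent calls were not used. Of 18894 probe sets, 125 were controls, 100 of them for foreign sequences. The platform annotation paired 13647 with 1 gene, 402 with several and 4720 with none. Gene IDs of 13544 matched the RefSeq table of the Release 6 assembly, used for names and gene order. The array's genome build is not stated, so no coordinates are given.

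Signals of non-control probe sets were quantile-normalized, since array trimmed means (2% trimmed from each end) differed by up to 1.51 times. Then 16 was added and log2 taken. The dimmest probe sets, under the 40th percentile of mean deposited signal, were dropped, and 11270 were tested with limma 3.58.1 in R 4.3.3 (lmFit, eBayes with an intensity trend). A Benjamini-Hochberg adjusted p under 0.05 counted as called. The brightest probe set stood for a gene. Fits were tested on simulated data.

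Members, lists and tests were chosen with earlier results of these data known. Of 157 list entries 156 matched 1 gene. Named were pita, the STING route, up to 4 genes of each other pathway list by smallest p, 3 neighbours a side and the 8 closest profiles. Marker genes and mRpL1 with the wider window are exceptions, the window and mRpL1 chosen after values were seen. Alternatives were other normalizations, pseudocounts, filters and spread estimates, blocking on replicate number or station, dropping each array in turn, and averaging probe sets. Same-numbered arrays did not deviate together (correlations -0.0616, -0.0340 and 0.0502). Python 3.11.15 and matplotlib 3.10.9 drew the figures.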

Additional observations from a re-analysis of the deposited data

How the results depend on the processing

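The Nazo change kept its direction in every refit. It was -4.25 with values as deposited, -4.51 with a pseudocount of 1 and -3.17 with one of 64, and -4.11 to -3.97 with 1 array left out. The Sting change was -0.34 as deposited and -0.12 to -0.03 with 1 array left out, and it stayed within the spread of replicates under the other settings run. The count of called probe sets was 229, of which 68 were higher and 161 lower. It was 142 as deposited, with 11 higher and 131 lower, 126 without the filter and 55 without the intensity trend. With 1 array left out it ran from 116 (without GFP replicate 2) to 249 (without spotted-dick replicate 2), and it was 142 without spotted-dick replicate 3 and 144 without GFP replicate 3. With the replicate number as a block it was 198, and the Nazo and Sting changes were -4.04 and -0.08. The shared number pairs nothing that the labels state, and same-numbered arrays did not deviate together.

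Of the pathway counts, that of the antimicrobial peptides moved most. It was 2, and it was 0 without the filter and without the trend, 1 with robust estimation, 1 with the replicate block and 0 to 2 with 1 array left out. The JAK/STAT count of 1 was 0 as deposited and 0 without the trend. The lipid count of 1 was 0 without the trend and 0 with probe sets averaged. The Imd and RNA interference counts of 0 ran from 0 to 1 with 1 array left out. The counts for the STING route, autophagy and the neighbours stayed at 0 in all refits. Of 57 named genes 44 were not called, and 18 of these changed sign in some refit without passing on either side, 9 of them as deposited. The cause was not tested. With 3 arrays a group, and Srg1 near background, small differences were not detectable.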
